A study of Rattus norvegicus with 16 samples.

Results

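Zfp genes are named for the zinc fingers their proteins carry, short loops held by a zinc ion that read DNA or bind RNA. The genes described here were chosen by a symbol made of Zfp and a number, leaving out Zfp36, and by a mean of 2 FPKM or more over 8 input libraries of rat ovary. FPKM counts sequenced fragments relative to transcript length and library size. They numbered 168 of 233 Zfp-numbered genes and of 22663 genes in the expression table. The level that chose them is described without a test. Just inside the threshold lay Zfp2 at a mean of 2.07 FPKM, Zfp704 at 2.09 FPKM and Zfp563 at 2.104 FPKM. Just outside lay Zfp397 and Zfp112, whose means round to 2.00 FPKM but lie under it, and Zfp597 at 1.962 FPKM. All 168 were typed as protein-coding in the table, and the symbols Zfp260 and Zfp84 each stand for 2 of the entries.

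The ovaries came from 8 rats, 4 labelled CON and 4 labelled VCD, which the series title spells out as 4-vinylcyclohexene diepoxide, an industrial chemical known for killing the smallest follicles of the ovary. Of each rat there was an input library of fragmented poly(A) RNA and an IP library of fragments that bound an m6A antibody, 16 libraries in all. The m6A mark is adenosine in mRNA with a methyl group at its N6 position. The labels give no strain, age, dose or time, and they put rat as the organism where the series text speaks of mice. A batch number from 1 to 4 stands in the labels of both groups, with no word on what it marks.

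Most genes of this class encode C2H2 zinc finger proteins, in which an array of fingers in a row contacts a stretch of DNA. Many carry a KRAB domain, which recruits the corepressor TRIM28 and through it histone and DNA methylation, best known for silencing transposons and for keeping imprints. Others act elsewhere, in splicing, on ribosomes, on the spindle or as ubiquitin ligases. The m6A mark is laid on mRNA by a methyltransferase complex built on METTL3, is found mainly near stop codons and in long internal exons, and is read by proteins that set the fate of the transcript.

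To show what the start regions of these genes look like, the 250 bases upstream of each start site were read from RefSeq (build GRCr8), where 134 promoters matched members. They are shown because some of the genes carry one sequence in common. A ZNF143 (STAF) site, searched on both strands with its middle bases left free, was found in 14 of the 134 promoters (10.4%) and in 2.52% of 19005 promoters of protein-coding genes. Those 19005 were taken whatever the expression of the gene, whereas the members all reached a mean of 2 FPKM. Below are 31-base windows of 6 of the members that hold it, ordered by mean FPKM and written on the strand of the gene, with the site in capitals.

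Zfp110: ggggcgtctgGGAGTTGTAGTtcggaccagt

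Zfp691: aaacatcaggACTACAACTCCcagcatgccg

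Zfp444: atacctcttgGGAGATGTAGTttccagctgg

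Zfp180: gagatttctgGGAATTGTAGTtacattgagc

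Zfp692: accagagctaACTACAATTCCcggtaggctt

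Zfp451: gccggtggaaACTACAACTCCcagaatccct

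The windows of Zfp110, Zfp444 and Zfp180 hold the site on the opposite strand, those of Zfp691, Zfp692 and Zfp451 on the strand of the gene. In GRCr8 the window of Zfp110 lies at chr1:82517997-82518027 on the plus strand, and that of Zfp451 at chr9:43536668-43536698 on the minus strand.

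Of the other motifs searched on both strands, the ETS core (CCGGAAG) was in 17.2% of the Zfp promoters against 9.52% of all. The CCAAT box (CCAAT) was in 41.8% against 35.5%. The TATA box (TATAAA) was in 8.96% against 12.3%. Zfp promoters held a median of 14 CpG against 9 in all promoters, at a median GC content of 57.2% against 54.8%. The 14 members with a ZNF143 site had a median level of 6.41 FPKM and the 120 without it 6.66 FPKM. A match is a description of letters and was not tested as a binding site.

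The Zfp genes were expressed at low levels. Their median of mean FPKM was 6.45, against 12.3 for 11405 other protein-coding genes that reached a mean of 2 FPKM. Under 10 FPKM lay 120 members (71.4%), against 43.1% of the other genes, and 11 members reached 20 FPKM. The highest was Zfp207, whose protein (also called BuGZ) acts on spindles and kinetochores, at a mean of 58.2 FPKM. Zfp706 followed at 47.0 FPKM. Zfp219 had 30.7 FPKM, Zfp513 29.6 FPKM, Zfp414 24.2 FPKM and Zfp598, the ubiquitin ligase that senses collided ribosomes, 24.1 FPKM. Zfp637 (23.6 FPKM), Zfp384 (22.0 FPKM), Zfp523, a close relative of Zfp143 (21.9 FPKM), and Zfp395 (21.3 FPKM) completed the 10 highest. Replicates lay close together: the median coefficient of variation over 4 libraries was 11.01% in CON and 11.5% in VCD, against 10.2% and 12.3% for the other coding genes.

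The comparison of VCD with CON input libraries asks whether transcripts of these genes differ after VCD. No member passed the test: limma on log2(FPKM + 1), adjusted by Benjamini-Hochberg over 14978 genes, called 0 of 168 at an adjusted p under 0.05. Over all tested genes it called 0.447%, of which 0.107% of the tested genes were higher and 0.34% lower in VCD. That count over all genes, 67, was 12 without CON 1, 13 without VCD 4 and 115 without VCD 3. The smallest adjusted p among the members was 0.0731. At an unadjusted p under 0.05 there were 41 members (24.4%), all lower in VCD, against 18.7% of all tested genes in either direction, 14.6% lower and 4.12% higher. In the authors' deposited table, 7 members had a q-value under 0.05, all lower (Zfp9, Zfp57, Zfp292, Zfp318, Zfp638, Zfp395 and Zfp281). That is 4.17% of the members, against 6.02% of the tested genes in either direction, 3.45% lower and 2.56% higher. Zfp318 lies outside the rule for named genes and was named after its value was seen.

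The values leaned low. A log2 change below 0 was found for 129 of 168 members (76.8%), against 63.5% of all tested genes. The 4 VCD values all lay below the 4 CON values for 27 members (16.1%), against 9.58% of all tested genes, and all above them for 1 member, against 2.27% (11.9% in either direction). The median log2 change was -0.13, against -0.06 over all tested genes, and the members ranged from -0.63 to 0.19. Log2 changes on this scale understate those of low genes. Among 26 Zbtb genes (zinc fingers with a BTB domain) the median was -0.14, with 76.9% below 0. Among 13 Zscan and Zkscan genes (zinc fingers with a SCAN domain) it was -0.12, with 92.3% below 0. For 17 Klf and Sp genes it was 0.01, with 47.1% below 0. All VCD values lay below all CON values for 23.1%, 7.69% and 5.88% of these families in turn.

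Genes of low level, Zfp or not, had the lower log2 changes. Between 2 and 3 FPKM the median log2 change was -0.20 for 33 Zfp genes and -0.14 for 899 other coding genes. Between 3 and 5 FPKM it was -0.20 for 30 and -0.13 for 1423, and between 5 and 10 FPKM -0.12 for 57 and -0.09 for 2597. From 10 to 20 FPKM it was -0.10 for 37 Zfp genes against -0.06 for 2677, and from 20 FPKM -0.05 for 11 against 0.01 for 3809. The Zfp median thus lay below that of the other genes in each of the 5 level classes. From the lowest class up, 81.8%, 86.7%, 75.4%, 67.6% and 72.7% of Zfp genes had a log2 change below 0. For other coding genes it was 74.4%, 72.2%, 70.6%, 63.9% and 48.1%. All VCD values lay below all CON values for 24.2%, 26.7%, 8.77%, 10.8% and 18.2% of Zfp genes. For other coding genes these shares were 15.8%, 14.9%, 11.7%, 8.63% and 4.52%, above the Zfp share from 5 to 10 FPKM.

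**Figure D1:**
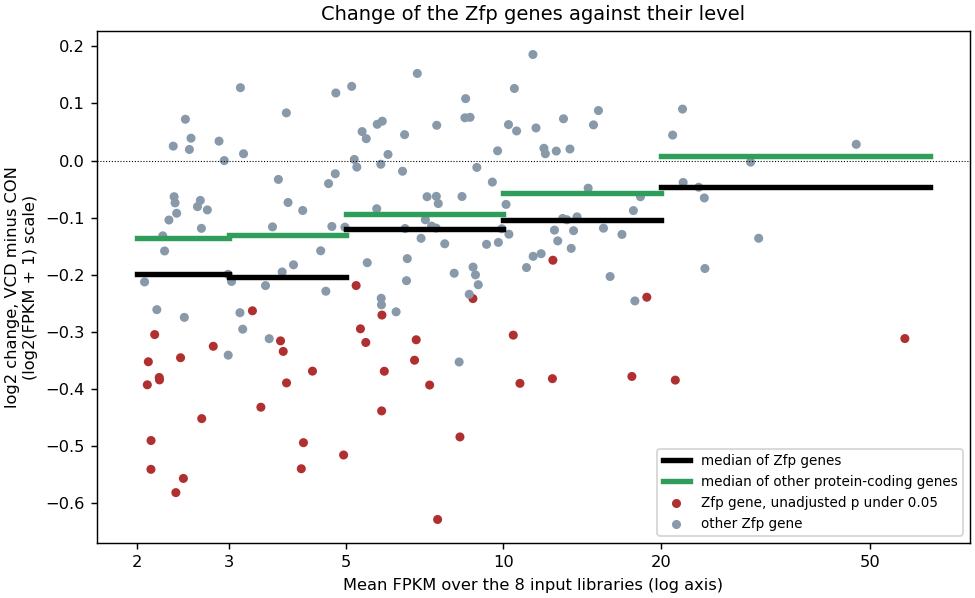
Log2 change (VCD minus CON, log2(FPKM + 1) scale) of the 168 Zfp genes against their mean FPKM on a log axis. Each point is a gene, red where the unadjusted limma p is under 0.05, and bars are the medians of Zfp and of other protein-coding genes in 5 level classes. The 41 red points all lie below 0, and the black bars lie below the green ones.

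The lean was not spread evenly over the libraries. Summed FPKM of the members was 1512, 1425, 1628 and 1403 in CON 1 to 4 and 1412, 1393, 1280 and 1321 in VCD 1 to 4, so CON 4 lay below VCD 1. CON 3 held the highest value of 89 members (53.0%), against 24.7% of all tested genes. VCD 3 held the lowest value of 57 members (33.9%, against 21.0% of all tested genes) and VCD 4 of 46 (27.4%, against 22.4%). With CON 3 and VCD 3 both left out, an alternative chosen after seeing the data, 115 members were below 0, the median was -0.07 against -0.04 over all genes, and 0 members were called. Genes typed as rRNA summed to between 8.17 and 25.0 FPKM in CON, highest in CON 3, and to between 28.6 and 56.9 FPKM in VCD. Of 10 oocyte markers 8 were tested and 6 called lower, and their sum was 34.5 to 54.2 FPKM in CON and 7.05 to 11.6 FPKM in VCD, none of them at 0 throughout. All 5 endothelial markers had log2 changes above 0 with none called, and sums of 101 to 130 FPKM (CON) and 138 to 166 FPKM (VCD). All 5 smooth muscle and 4 of 5 theca and interstitial markers were above 0, and all 5 stroma, 5 macrophage and 4 T and B cell markers below 0, with none called. Of 8 granulosa markers 5 were below 0 and 1 was called lower. The part of any of these in the Zfp values was not tested. In whole ovary, fewer cells of a type and less RNA per cell cannot be told apart.

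**Figure D2:**
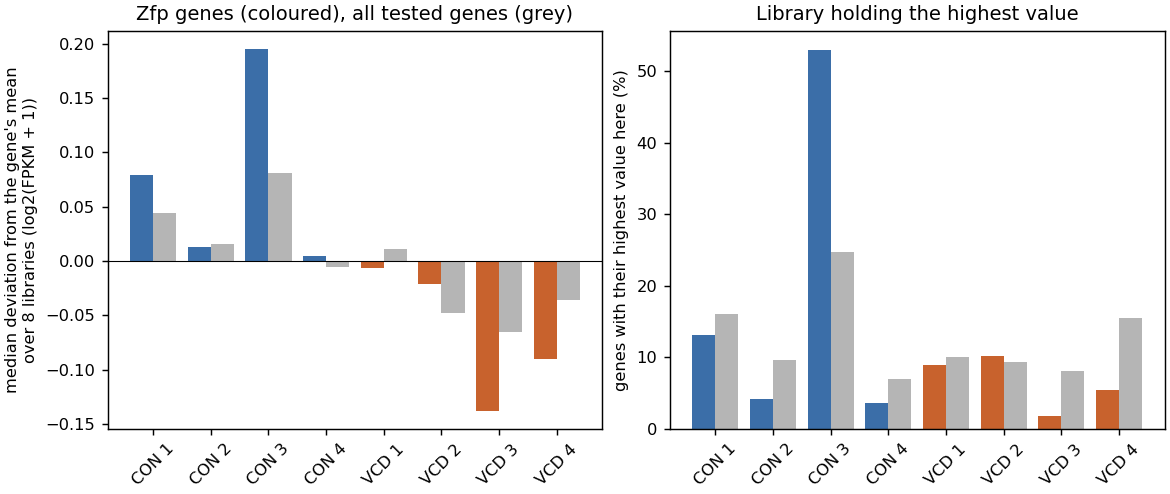
Left, the median deviation of genes from their own mean over the 8 input libraries (log2(FPKM + 1)); right, the percent of genes whose highest value lies in each library. Coloured bars are the 168 Zfp genes and grey bars all 14978 tested genes. CON 3 stands highest for the Zfp genes and VCD 3 lowest.

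The 4 members with the smallest adjusted p separated the groups. They were picked by that same comparison, so their separation adds no further support. All VCD values lay below all CON values for 9.58% of all tested genes. Zfp395 had 24.3, 24.2, 24.1 and 24.1 FPKM in CON 1 to 4 and 18.6, 20.1, 18.9 and 15.8 FPKM in VCD 1 to 4. All VCD values lay below all CON values, which were nearly equal (log2 change -0.38 ± 0.08 SE, limma adjusted p = 0.0731). Zfp9 had 2.65, 2.82, 2.38 and 2.96 FPKM in CON and 1.91, 1.65, 1.21 and 1.44 FPKM in VCD. The groups did not overlap (log2 change -0.54 ± 0.11 SE, limma adjusted p = 0.0740).

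Zfp57 encodes a KRAB protein that keeps DNA methylation at imprinted regions. It had 5.71, 4.44, 5.76 and 4.38 FPKM in CON and 2.84, 3.65, 2.99 and 3.18 FPKM in VCD. CON fell into a higher and a lower pair, and all VCD values lay beneath both (log2 change -0.54 ± 0.11 SE, limma adjusted p = 0.0747). Zfp445, the other KRAB protein known to keep imprints, had 6.81, 6.60, 8.47 and 5.66 FPKM in CON and 5.39, 5.36, 5.07 and 3.50 FPKM in VCD. CON 3 was its highest and VCD 4 its lowest library, with no overlap between groups (log2 change -0.44 ± 0.15 SE, limma adjusted p = 0.161).

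Zfp207, the spindle gene and the most abundant member, had 70.9, 62.0, 67.3 and 58.6 FPKM in CON and 51.2, 49.5, 52.6 and 53.9 FPKM in VCD. Its VCD libraries lay within a narrow range below all of CON (log2 change -0.31 ± 0.08 SE, limma adjusted p = 0.0989).

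Among the 5 lowest log2 changes, besides Zfp9 and Zfp57, were Zfp638, Zfp37 and Zfp292. Zfp638, whose protein (NP220) is known to silence unintegrated retroviral DNA, had 9.31, 8.22, 11.98 and 7.72 FPKM in CON and 6.51, 6.21, 5.98 and 3.98 FPKM in VCD. CON 3 and VCD 4 formed the extremes (log2 change -0.63 ± 0.16 SE, limma adjusted p = 0.107). Zfp37, a KRAB gene, had 2.75, 3.12, 3.36 and 2.86 FPKM in CON and 1.61, 1.40, 2.59 and 1.30 FPKM in VCD. VCD 3 stood well above the other VCD libraries but still below all of CON (log2 change -0.58 ± 0.15 SE, limma adjusted p = 0.104). Without VCD 3 Zfp37 was the 1 member called (log2 change -0.72 ± 0.11 SE, limma adjusted p = 0.0402), where 115 of all 14978 genes (0.768%) were called. Zfp292, a very large transcription factor, had 2.93, 2.65, 4.31 and 2.59 FPKM in CON and 2.12, 2.01, 1.76 and 1.26 FPKM in VCD. Its groups did not overlap, with CON 3 far above the rest (log2 change -0.56 ± 0.16 SE, limma adjusted p = 0.124).

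**Figure D3:**
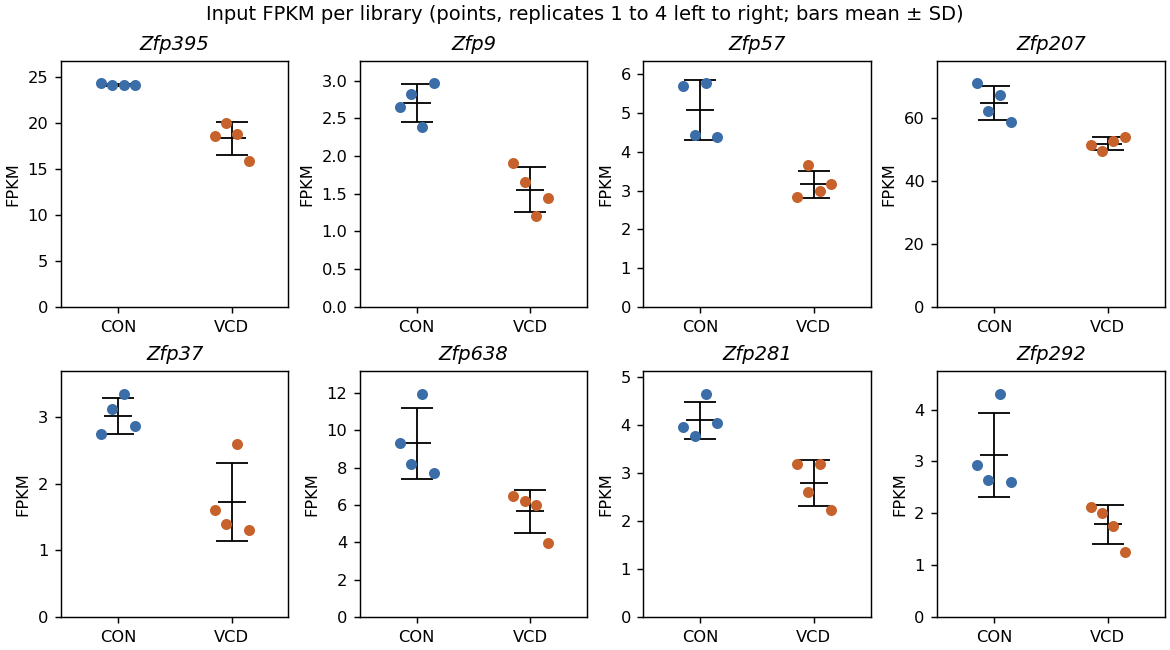
Input FPKM of 8 Zfp genes in the 4 CON and 4 VCD libraries, on linear axes from 0. Points are libraries in replicate order, and bars are the mean ± SD of 4. In each panel all VCD points lie below all CON points. These 8 are among the 27 of 168 members whose groups separated in this way.

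Members of other known roles were not called either. Zfp281, a transcription factor of pluripotent cells, had 3.95, 3.76, 4.65 and 4.03 FPKM in CON and 3.18, 2.59, 3.19 and 2.22 FPKM in VCD (log2 change -0.43, limma adjusted p = 0.108). Zfp91, a ubiquitin ligase, had 20.4 ± 1.02 and 17.1 ± 1.00 FPKM (CON and VCD mean ± SD, n = 4; log2 change -0.24, limma adjusted p = 0.134). Neither gene overlapped between groups. Zfp217 is known in mouse embryonic stem cells to bind METTL3 and limit m6A. It had 8.41 ± 1.90 FPKM in CON and 6.06 ± 0.328 FPKM in VCD (log2 change -0.39, limma adjusted p = 0.180), with overlap, since CON 2 lay below VCD 3. Zfp148, which binds G-rich promoters, had 11.6 ± 1.24 and 9.24 ± 1.19 FPKM, also overlapping (log2 change -0.31, limma adjusted p = 0.185).

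Of the members acting on RNA, ribosomes or proteins, Zfp638, Zfp207 and Zfp91 are given above with log2 changes of -0.63, -0.31 and -0.24. Zfp598 had 24.7 ± 0.348 FPKM in CON and 23.6 ± 1.33 FPKM in VCD, with a log2 change of -0.07. Zfp593, known for ribosome assembly, had 4.83 ± 0.614 and 4.73 ± 0.485 FPKM, with a log2 change of -0.02. Zfp622, also a ribosome assembly factor, had 3.18 ± 0.384 and 3.21 ± 0.432 FPKM, with a log2 change of 0.01. Zfp410, a transcription factor known in mouse to act almost only on Chd4, had 18.7 ± 0.305 and 17.8 ± 0.760 FPKM, with a log2 change of -0.06. Limma adjusted p values of these 4 lay between 0.617 and 0.966. Zfp106 (RNA-binding, log2 change -0.20), Zfp326 (a splicing factor, -0.25), Zfp451 (a SUMO ligase, -0.12), Zfp346 (binds double-stranded RNA, -0.12) and Zfp830 (-0.10) had adjusted p values of 0.309 to 0.598. Zfp703 (0.06), Zfp503 (-0.06), Zfp423 (0.03), Zfp462 (-0.25), Zfp335 (0.09), Zfp219 (-0.14) and Zfp384 (-0.04), which act in development or transcription, had 0.385 to 0.913.

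No member was called higher. The 5 highest log2 changes were 0.19 for Zfp524, 0.15 for Zfp394 and 0.13 each for Zfp143, Zfp668 and Zfp41, with limma adjusted p values of 0.362 to 0.484. Zfp143 encodes the factor that binds the site printed above. It had 4.93, 5.19, 5.06 and 4.26 FPKM in CON and 5.83, 5.56, 5.29 and 4.97 FPKM in VCD, so the groups overlapped. Zfp394 was the 1 member with all VCD values above all CON values, at 6.20, 6.90, 7.00 and 5.68 FPKM in CON. Its VCD values were 7.56, 7.04, 7.40 and 7.03 FPKM. Its groups were apart by less than 0.1 FPKM at the nearest pair.

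The partners through which KRAB proteins act were followed as a list of 25 names, chosen with earlier results of these data known. Of these, 24 were found as 25 entries (Atrx has 2), and Suv39h1 was not analysed here. Limma called 0 of 25, against 0.447% of all tested genes. At an unadjusted p under 0.05 there were 11, all lower, against 14.6% of all tested genes lower. A log2 change below 0 was found for 21, against 63.5%, and the median was -0.18, against -0.06. In the authors' deposited table, 4 had a q-value under 0.05, against 6.02% of all tested genes. Uhrf1, which brings the maintenance DNA methyltransferase to replicated DNA, had 9.54, 6.01, 6.82 and 5.81 FPKM in CON and 3.20, 2.37, 4.38 and 2.14 FPKM in VCD. Its groups did not overlap (log2 change -1.01 ± 0.20 SE, limma adjusted p = 0.0661). Dnmt1, that methyltransferase, had a CON mean of 16.7 ± 2.14 FPKM and a VCD mean of 11.3 ± 1.21 FPKM (SD, n = 4; log2 change -0.52, limma adjusted p = 0.0731). Mphosph8, a subunit of the HUSH silencing complex, had 19.8 ± 3.11 and 12.4 ± 2.48 FPKM (log2 change -0.64, adjusted p = 0.0964). Atrx, the chromatin remodeller, had 1.117 ± 0.344 and 0.284 ± 0.195 FPKM in the lower of its entries (log2 change -0.72, limma adjusted p = 0.0825). The higher Atrx entry had 5.81 ± 0.762 and 4.16 ± 0.804 FPKM (log2 change -0.41, limma adjusted p = 0.164).

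The central corepressor was nearer to its CON level. Trim28 had 82.6, 74.99, 77.5 and 71.6 FPKM in CON and 72.9, 62.0, 64.5 and 71.0 FPKM in VCD, with overlap (log2 change -0.18 ± 0.08 SE, limma adjusted p = 0.260). Setdb1, the histone methyltransferase it recruits, had 17.8 ± 1.56 FPKM in CON and 16.98 ± 1.66 FPKM in VCD (log2 change -0.06, adjusted p = 0.742). Without VCD 3, Uhrf1 was the 1 entry of the list called, at a limma adjusted p of 0.0402, beside 0.768% of all tested genes.

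The peak lists ask where m6A sits on these transcripts. The authors deposited 1 list per group, with no values per replicate and a log2 enrichment of IP over input for each peak, so levels are given without error and differences without a test. Nearly all Zfp transcripts carried a peak. In the CON list 159 of 168 members (94.6%, exact binomial 95% interval 90.1 to 97.5) had at least 1, against 86.3% of other protein-coding genes weighted to the same level classes. In the VCD list 157 (93.5%, interval 88.6 to 96.7) had 1, against 86.0%. These intervals cover counting error only. Each list held 260 Zfp peaks, 1.55 per gene, against 1.53 per gene in CON and 1.51 in VCD for the other genes. In the CON list 90 members had 1 peak, 43 had 2, 20 had 3 and 6 had 4. In the VCD list these numbers were 82, 56, 11 and 7, and Zfp532 had 5.

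Zfp peaks had a higher median enrichment than peaks of other genes of like level. The median log2 enrichment of Zfp peaks was 3.13 in CON and 3.25 in VCD, against 2.16 and 2.24 for other protein-coding genes. Weighted to the same level classes it was 3.20 against 2.27 in CON and 3.29 against 2.34 in VCD. Between 2 and 3 FPKM the CON medians were 3.71 and 2.398, between 3 and 5 FPKM 3.62 and 2.35, and between 5 and 10 FPKM 3.19 and 2.27. From 10 to 20 FPKM they were 2.78 and 2.17, and from 20 FPKM, with 11 Zfp genes, 2.00 and 1.98. The distance thus shrank with level and was nearly gone in the highest class. The VCD list showed the same order in the lower 4 classes, and 2.30 against 2.05 in the highest.

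**Figure D4:**
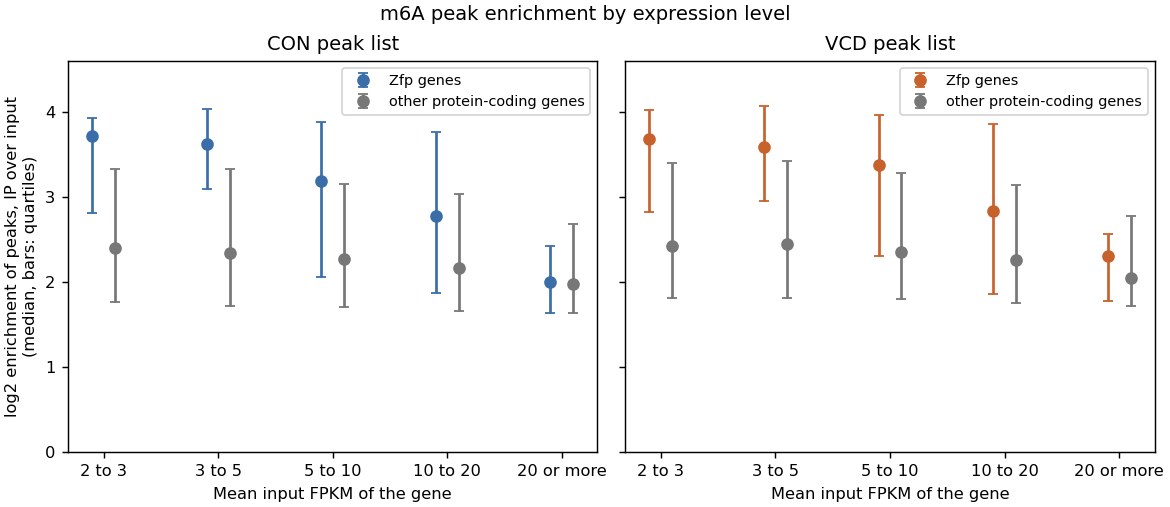
Median log2 enrichment of m6A peaks (IP over input, bars are quartiles) by the mean input FPKM of the gene, for Zfp genes (coloured) and other protein-coding genes (grey), in the CON and VCD peak lists. Zfp medians lie above the others in the lower 4 classes of both lists and nearer to them at 20 FPKM or more. The quartile bars overlap in every class.

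Other zinc finger genes stood beside them. Peaks of 26 Zbtb genes (zinc fingers with a BTB domain) had a median log2 enrichment of 3.66 in CON and 3.65 in VCD. Those of 13 Zscan and Zkscan genes (zinc fingers with a SCAN domain) had 3.19 in both lists. The 17 Klf and Sp genes, which carry only a short finger array, had 2.77 and 3.02. These classes were taken by name and hold few genes. Of the Zfp peaks, 49 of 260 (18.8%) in CON lay in the strongest 10% of all peaks, at a log2 enrichment of at least 3.95, against 6.69% of other coding peaks. In VCD 53 (20.4%) did, from 4.03 on, against 6.78%. These shares were not weighted by level. The CON share was 11 of 34 (32.4%) for Zbtb peaks, 5 of 22 (22.7%) for Zscan and Zkscan peaks and 4 of 28 (14.3%) for Klf and Sp peaks.

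Peaks at the stop codon and inside exons made up most of the set. Values by annotation pooled genes of all level classes, so unlike those above they were not weighted by level. In the CON list 106 Zfp peaks (40.8%) were annotated to the stop codon, against 34.0% for other coding genes, and 79 (30.4%) as exonic, against 24.2%. The 3' UTR held 36 (13.8% against 21.5%), the start codon 30 (11.5% against 16.4%) and the 5' UTR 9 (3.46% against 3.64%). In the VCD list 41.9% lay at the stop codon, 30.0% were exonic and 15.0% lay in the 3' UTR. The medians were furthest apart in the first 2 kinds. CON stop codon peaks had a median log2 enrichment of 3.74 against 2.92 and exonic peaks 3.12 against 1.959. Start codon peaks had 2.41 against 1.98, 3' UTR peaks 1.95 against 1.72 and 5' UTR peaks 1.99 against 1.88. In CON 61.8% of Zbtb, 31.8% of Zscan and Zkscan and 35.7% of Klf and Sp peaks lay at the stop codon. Their stop codon medians were 3.87, 3.47 and 3.82, and their exonic medians 3.20, 4.16 and 2.67. Of the 159 members with a CON peak, the strongest one was at the stop codon in 93 (58.5%) and exonic in 48 (30.2%). Peaks are given as genomic spans that can run over introns, a median of 4094 bases for Zfp stop codon peaks and 2704 bases for others, so 1 annotation can stand for several exons.

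**Figure D5:**
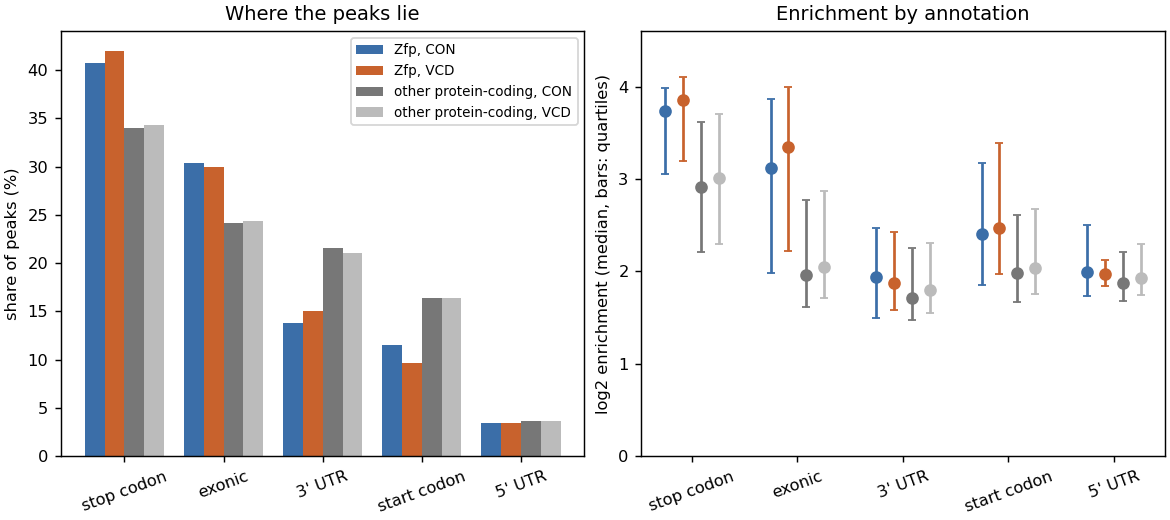
Left, the percent of m6A peaks by the authors' annotation for Zfp and other protein-coding genes in both peak lists; right, their median log2 enrichment with quartile bars. Zfp peaks are more often at the stop codon or exonic than those of other protein-coding genes, without weighting by level. In these kinds their median enrichment stands furthest above that of the other protein-coding genes.

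The strongest peaks lay on a pair of related developmental genes. Zfp503 and Zfp703 belong to the NET family of zinc finger repressors, which carry few fingers. The Zfp503 peak at the stop codon (chr15:2375082-2378369, plus strand, in file coordinates, whose build the sources used here do not give) had a log2 enrichment of 5.44 in CON and 5.37 in VCD. That of Zfp703 (chr16:69238407-69241920 in CON, minus strand) had 5.24 and 5.16. Zfp830, whose peak covers the whole gene (chr10:70118250-70119716, plus strand), had 4.79 and 4.82. By contrast the stop codon peak of Zfp207, the most abundant member, had 2.21 and 2.32 over 275 bases.

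Zfp532 had the most peaks, 9 over both lists, followed by Zfp142, Zfp384 and Zfp462 with 8 each. Zfp219 and Zfp346 were among several members with 7. In Zfp142 the CON enrichments were 3.88 at the stop codon, 3.10 and 1.958 in exons and 2.50 in the 5' UTR, and the VCD values were 4.03, 3.23, 2.04 and 2.37. The same 4 places were marked in both lists. In Zfp532 a single exonic CON span (3.19) stood opposite 2 VCD spans (2.56 and 3.63), which covered the same stretch.

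No peak in either list was found for 8 entries, which are Zfp74, Zfp14, Zfp82, Zfp324, Zfp277, Zfp335, and 1 of the entries each of Zfp84 and Zfp260. Zfp335, a part of a histone methyltransferase complex, lacked a peak at 15.2 FPKM and Zfp277 at 12.4 FPKM. The Zfp260 entry without a peak had 8.05 FPKM and its neighbour entry with 2 peaks per list 7.29 FPKM. Both carry 1 symbol and lie side by side, and the sources used here do not say how reads were divided between them. Zfp622 had a peak in VCD only, and Zfp580, Zfp414 and Zfp706 in CON only. Of these, Zfp74, Zfp84, Zfp14, Zfp82, Zfp324, Zfp277 and Zfp580 lie outside the rule for named genes and were named after their values were seen.

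Most Zfp peaks of either list overlapped a peak of the other. Of the 260 CON peaks 246 (94.6%) overlapped a VCD peak of the other list by at least 1 base, and of the 260 VCD peaks 252 (96.9%) overlapped a CON peak. For other protein-coding genes these shares were 91.3% and 93.1%. A stricter rule asked that the overlap cover a large part of each peak. Under it 218 of 260 Zfp peaks (83.8%) were shared in either list, against 81.6% (CON) and 82.8% (VCD) for other coding genes. Differences were taken over 211 Zfp pairs that overlapped by at least 1 base, which are not all such pairs, since 218 met the stricter rule. The median difference in log2 enrichment (VCD minus CON) over these 211 was 0.11, and 78.7% were higher in VCD. Over 13905 pairs of other coding genes at an overlap of at least 1 base it was 0.08, and 73.1% were higher.

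The authors' deposited table of differential peaks listed 100 peaks in 84 of the 168 Zfp genes. Of these peaks 95 (95.0%) were higher and 5 lower in VCD. For other protein-coding genes it listed 4725 peaks, in 3990 of 11405 genes. Over all peaks listed 82.8% were higher, and of those in other protein-coding genes 84.1%. All peaks with a p in that table had one under 0.05, so it holds no count of unchanged peaks. The 5 lower ones were in Zfp609, Zfp346, Zfp703, Zfp330 and Zfp641, the last at a log2 difference of -0.57 (Zfp609, Zfp330 and Zfp641 were named after their values were seen). Of the 95 higher ones, 47 were at stop codons and 32 exonic. The median log2 difference over the 100 peaks was 0.20, against 0.19 over all listed.

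The mark of significance in the authors' deposited table (an absolute log2 difference of at least 1) stood at 5 of the 100 Zfp peaks. It stood at 171 of 4725 listed peaks of other protein-coding genes and at 7.79% of all listed. All 5 Zfp peaks were higher in VCD, as were 56.7% of the 171 and 59.6% of the 431 marked peaks of all genes. Zfp260 had 2 of the 5. In its 5' UTR peak (chr1:88457594-88461650) the log2 enrichment was 0.89 in CON and 4.26 in VCD, an adjusted p of 9.35e-05 in the authors' deposited table, although neither group's list held a peak there. In its 3' UTR peak it was 2.24 and 3.27 (adjusted p = 0.0696 in the authors' deposited table). An exonic peak of Zfp346 had 3.14 and 5.33 (adjusted p = 0.000149 in the authors' deposited table), while its 3' UTR peak had 2.80 and 2.43. An exonic peak of Zfp704 had 1.23 and 2.50 (0.0381 in the authors' deposited table). A 3' UTR peak of Zfp467 had 1.05 and 2.19 (0.176 in the authors' deposited table). Zfp704 lies just inside the level threshold, with a CON mean of 2.50 ± 0.320 FPKM and a VCD mean of 1.69 ± 0.449 FPKM (SD, n = 4).

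The members gathered on some chromosomes. Chromosome 1 held 39 (23.2%), against 12.5% of the other protein-coding genes, and 70 members had another Zfp-numbered gene within 100 kb. The longest rows held 7 Zfp genes each. One on chromosome 4 (chr4:77495663-77747070) had 6 members, among them Zfp212 and Zfp746, with a median log2 change of -0.12. Another on chromosome 1 (chr1:88324339-88605697) holds both entries of Zfp260, and its 4 members had log2 changes of -0.20 to -0.09. A row of 5 on chromosome 1 (chr1:72338877-72468738), with Zfp524, had a median of 0.03. The rows of 5 on chromosome 7 (chr7:15024693-15301382) and chromosome 8 (chr8:21380504-21617736) had medians of -0.36 and -0.27. Each of these held 4 members, all below 0. Members with a Zfp neighbour had a median log2 change of -0.12 and those without -0.13. The median log2 enrichment of their peaks was 3.65 in CON and 3.78 in VCD with a neighbour, and 2.88 and 3.04 for the 98 without. The first class also had the lower level, at a median of 5.84 FPKM against 7.34 FPKM.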

How the data were processed

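Titles number the rats, so input libraries of a group were taken as separate animals. FPKM per gene and library, with a fold ratio, its log2 value, p-values and q-values of VCD against CON, were deposited by the authors, per the file headers. Each peak list, 1 per group, gives log2 enrichment of IP over input with p-values, made by the authors, and the differential peak table gives the log2 difference of both enrichments with its p-value, per the file headers. HISAT2 2.0.4, StringTie 2.1.2, HOMER 4.10, fastp 0.19.4 and edgeR 4.1 are named without roles, and a human build too, per the submitters' processing notes, whereas the gene identifiers are rat. The sources used here do not settle the build of the coordinates. Peak starts were read as counted from 0 and printed counted from 1. FPKM values keep no read totals, so the depth is unknown.

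All 14978 genes whose mean reached 0.5 FPKM entered 1 fit of log2(FPKM + 1) by limma 3.58.1 in R 4.3.3 (lmFit, then eBayes with a trend), VCD against CON, with p-values adjusted by Benjamini-Hochberg. Peaks and levels were set beside other protein-coding genes in classes from 2, 3, 5, 10 and 20 FPKM. The share of genes with a peak, peaks per gene and overall median enrichment were weighted by the share of Zfp genes in each class. Values by annotation and shares in the strongest 10% of peaks pooled all levels without weights. Overlaps used bedtools 2.31.1 on the same strand (Python 3.11.15, pandas 2.3.3, scipy 1.17.1). Promoters were matched by symbol or synonym for 136 entries, 134 promoters in all, and the sequence of 1 of them is not reported here. Proteins were not analysed here. The members, lists and comparisons were chosen with earlier results of these data known.

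Named genes are the 10 highest in level, the 5 largest and 5 lowest log2 changes, the 5 with most peaks, those with a peak marked significant, the 3 on either side of the level threshold and members of listed roles. Of the cofactors, Trim28, Setdb1 and the 4 with the smallest p were named. From the role list Zfp521 lay under 2 FPKM, and Zfp568, Zfp809 and Zfp42 were not analysed here. The fit was tested on simulated data with independent noise in each gene. It called 24 of 50 Zfp genes given a log2 fall of 0.5 and 47 of 50 given a fall of 1. Most log2 changes of the members were smaller than these. The batch number is shared by both groups. Libraries of the same number correlated in their departures from the group mean at -0.01, -0.09, 0.01 and -0.07, which gave no pairing, and an alternative took that number as a block. Further alternatives changed the pseudocount, the filter, the scaling, the peak and rule thresholds, the comparison genes and the libraries.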

Additional observations from a re-analysis of the deposited data

Results flagged for a closer look

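Among the 46 named entries, 92 groups of 4 libraries were examined for a value far from the other 3 by Dixon's ratio, which flags about 1 in 20 groups by chance, and 2 were found. Zfp445, which keeps imprints, was lowest in VCD 4 at 3.50 FPKM, where the other VCD libraries lay between 5.07 and 5.39 FPKM. Zfp467, known to promote adipogenesis in mouse, was lowest in CON 4 at 5.43 FPKM, where the other CON libraries lay between 6.82 and 6.90 FPKM.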

How the results depend on the processing

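Limma called 0 Zfp genes with every pseudocount, filter, scaling and rule threshold tried, and 0 to 1 with 1 library left out, the 1 being Zfp37 without VCD 3. The authors' q-values gave 7. The cofactor list had 0 to 1 called, the 1 being Uhrf1 without VCD 3. With 1 library left out the Zfp median log2 change was -0.17 to -0.09 and 118 to 138 members lay below 0. Scaling each library to a common median moved the Zfp median from -0.13 to -0.037, with 105 members below 0 while the median of all genes went to 0.02. Quantile normalization gave -0.046, 99 members and 0.01. With the replicate number as a block the Zfp median was -0.13, 0 Zfp genes and 0 cofactors were called, and over all genes 31 were called in place of 67. That count of 67 was 12 to 115 with 1 library left out (22 or 23 without CON 3 or CON 2, 29 without VCD 2), 6 without CON 3 and VCD 3, and 3 when the filter was set at 5 FPKM. Of 46 named entries, 12 took the other sign in at least 1 alternative, none of them called.

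At a log2 enrichment of at least 2, Zfp peaks per gene were 1.15 in CON and 1.23 in VCD, their median enrichment 3.60 and 3.67, and the stop codon share 51.5% and 50.5%. With the rule at 5 FPKM, peaks per gene were 1.75 in CON and the median enrichment 2.78 in CON and 2.96 in VCD. Against all other genes in place of coding ones, the share with a peak was 82.6% in CON and 82.3% in VCD, with 1.46 and 1.44 peaks per gene. Of the authors' differential Zfp peaks, 49 higher and 2 lower ones had an adjusted p under 0.05, and 5 higher and 0 lower ones were marked significant. Depth is unknown, so low members cannot be given a counting error, and peak lists without replicates carry no error between animals.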
